A study of Mus musculus with 18 samples.

Results

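Cells that had failed to become cardiomyocytes 4 weeks into a reprogramming experiment, and that lacked the green fluorescent reporter (GFP-), were compared with neonatal cardiac fibroblasts (CF) across 19912 genes. The comparison used 6 of the 18 arrays of the study, 3 labelled as reprogramming failed GFP- cells at 4 weeks and 3 labelled as neonatal cardiac fibroblasts, and the members were chosen by those labels. Beside them stood 3 arrays of GFP- cells at 2 weeks and 3 of GFP+ induced cardiomyocyte-like cells (iCMs) at 4 weeks, each set against the 4-week GFP- cells. These arrays, and the 3 arrays each of 2-week iCMs and of neonatal cardiomyocytes, also entered the estimate of the spread. All 6 groups were from CD1 mice and were measured on Affymetrix mouse Gene 1.0 ST arrays. The labels name neither the factors that were introduced, nor the promoter that drives GFP, nor the age of the mice behind the GFP- cells, and no mock-treated culture kept for the same time was analysed here. Time in culture, exposure to the factors and the sort by GFP therefore cannot be told apart in the difference from CF. The 3 arrays of each group are called biological replicates in the series' description. Whether each came from its own culture is not said in the labels, and a p-value here therefore rests on the spread among arrays, which may be technical.

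Cardiac fibroblasts are mesenchymal cells that build and turn over the collagen-rich matrix of the heart, and they carry the transcription factor Tcf21 and the platelet-derived growth factor receptors. Forced expression of cardiac transcription factors, in the field most often Gata4, Mef2c and Tbx5, turns part of such cells into cardiomyocyte-like cells, and the cells that do not switch on the reporter are collected as the GFP- fraction. Cultures from heart tissue can also hold macrophages and endothelial cells, which share the tissue with fibroblasts.

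Values are log2 intensities per probe set, so a difference of 1 is a 2-fold change. Differences are 4-week GFP- cells minus CF in log2 units with their standard error (SE) from limma, and n = 3 arrays per group throughout. The median of an array lay between 7.32 and 7.44. Arrays of the same group correlated across genes at r = 0.993 to 0.9955 for 4-week GFP- cells and 0.9936 to 0.9959 for CF, and arrays of the 2 groups correlated with each other at 0.9766 to 0.9832. A group mean under 6.16 log2 (the lowest value that any array had as its 25th percentile) was taken as not above background. That limit was set with the data known, since the values hold no detection call, and 3738 genes lay under it in both groups. Where 1 group lay under it, the fold change is given as a lower bound against that limit.

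The labelled cell types were set against marker genes. Col1a1, the main chain of type I collagen, averaged 8.59 ± 0.08 log2 in 4-week GFP- cells and 10.46 ± 0.22 log2 in CF (SD, n = 3 each). Both groups also carried macrophage genes at high signal, whatever their labels. Ptprc (CD45), the surface phosphatase of all white blood cells, had 11.91, 11.86 and 12.02 log2 in 4-week GFP- cells, against 11.68, 11.76 and 11.94 log2 in CF (0.14 ± 0.13, adjusted p = 0.661 in limma). Adgre1, a surface antigen that marks mouse macrophages, had 12.29, 12.30 and 12.91 log2 in 4-week GFP- cells, against 11.79, 11.94 and 12.09 log2 in CF, a difference of 0.56 ± 0.21 that was not called. Averaged over 30 core macrophage genes, the level per array was 11.55 to 11.65 log2 in 4-week GFP- cells and 11.20 to 11.40 log2 in CF, against 6.80 to 6.91 log2 in cardiomyocytes. In these bulk samples fewer cells of a type and less RNA per cell cannot be told apart, and the part of macrophage, endothelial or other admixed cells in the results was not tested.

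In all, 2286 genes were called (11.5% of those tested) at a Benjamini-Hochberg adjusted p under 0.05 in limma, 1152 higher (5.79%) and 1134 lower (5.7%) in 4-week GFP- cells than in CF. Of these, 402 differed at least 2-fold (2.02%), 176 upward and 226 downward, and 39 and 38 differed at least 4-fold. The arrays of the 2 groups did not overlap in 6028 genes (30.3%). Counts in the gene lists below stand beside these shares of all genes, and a count near its share says little about that list. The median difference over all genes was -0.01 log2, and the SE of a difference was 0.109 log2 in the median gene. Centring each array on its median in place of the deposited scale gave 1440 higher and 916 lower calls.

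**Figure D1:**
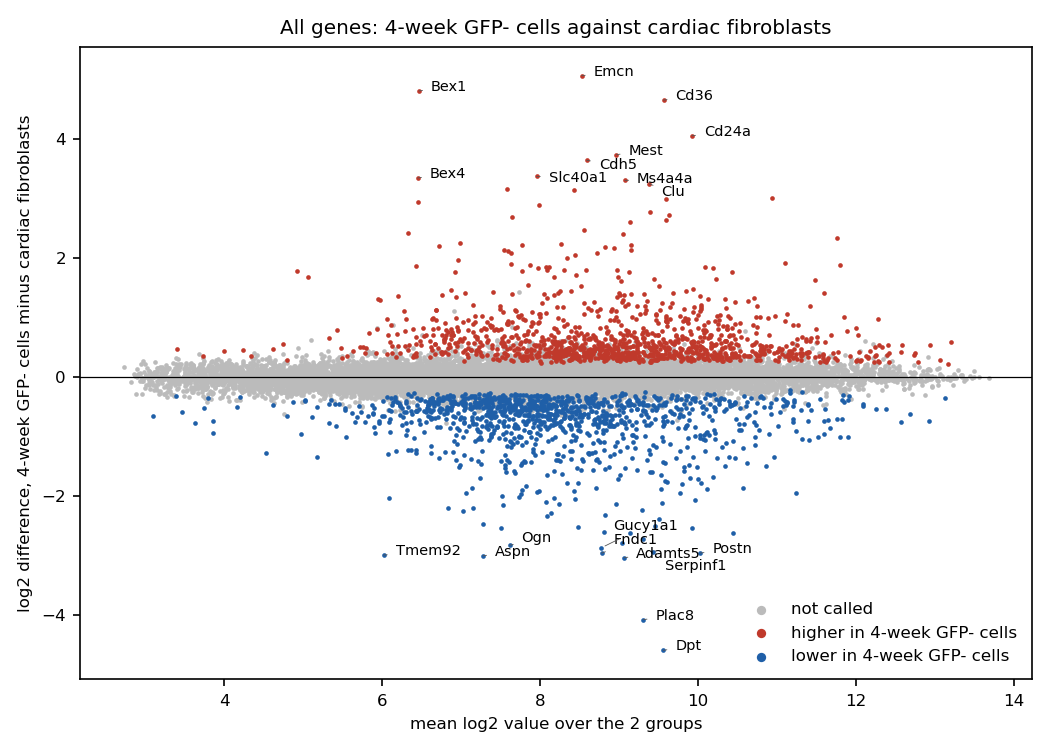
Log2 difference of 4-week GFP- cells minus cardiac fibroblasts (vertical axis) against the mean log2 value of both groups (horizontal axis), with 1 point per gene and 19912 genes. Red points are the 1152 genes called higher, blue points the 1134 called lower, and grey points were not called; names mark 10 genes with the largest rises and 10 with the largest falls.

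The largest rise was that of Emcn. Emcn (probe set 10496359), endomucin, a sialomucin of capillary and venous endothelium, had 11.19, 11.08 and 10.90 log2 in 4-week GFP- cells, against 6.39, 5.61 and 5.97 log2 in CF. The groups lay far apart, and the CF mean was under the background limit, so Emcn was at least 29.9-fold higher (adjusted p = 9.04e-14). Cd36 (probe set 10528207), a fatty acid receptor of macrophages and capillary endothelium, had 11.93, 11.84 and 11.91 log2 in 4-week GFP- cells, against 6.89, 7.16 and 7.65 log2 in CF. The difference of 4.66 ± 0.17, adjusted p = 2.9e-13, was a 25.3-fold rise. Cd24a, a surface sialoglycoprotein, had 11.95, 11.89 and 12.02 log2 in 4-week GFP- cells, against 8.03, 8.09 and 7.55 log2 in CF (4.06 ± 0.14). Mest, an imprinted gene of the mesoderm, had 10.93, 10.86 and 10.73 log2 in 4-week GFP- cells, against 6.93, 7.16 and 7.20 log2 in CF (3.74 ± 0.16). In each of these genes every 4-week GFP- array lay above every CF array, which the choice of genes required. The 15 largest rises and 15 largest falls were taken only from called genes whose arrays did not overlap. For any of them, here and below, the lack of overlap is therefore no added support. Slc40a1, the iron exporter ferroportin, rose by 3.38 ± 0.16 and Clu, the extracellular chaperone clusterin, by 3.25 ± 0.13. Ms4a4a, a membrane protein of macrophages, rose by 3.31 ± 0.15. Clec4n, the fungal pattern receptor dectin-2, rose by 3.00 ± 0.28. The X-linked genes Bex1 and Bex4 were at least 6.56-fold and at least 3.92-fold higher, with CF means under the background limit. The same held for Myct1, which was at least 8.03-fold higher. The rest of the 15, Cdh5, Lcn2, Atp6v0d2 and Cd209f, are described with their gene groups.

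The largest fall was that of Dpt. Dpt (probe set 10351293), dermatopontin, a matrix protein that binds collagen and decorin, had 7.68, 7.14 and 6.97 log2 in 4-week GFP- cells, against 12.08, 11.86 and 11.63 log2 in CF. The difference was -4.59 ± 0.19, adjusted p = 2.44e-12, a 24.1-fold fall. Every 4-week GFP- array lay below every CF array, as the choice of genes required. Plac8 (probe set 10531724), a cysteine-rich protein abundant in monocytes, had 7.68, 6.90 and 7.22 log2 in 4-week GFP- cells, against 11.57, 11.31 and 11.15 log2 in CF (-4.08 ± 0.22). Adamts5, a protease that cleaves aggrecan and versican, had 7.92, 7.74 and 6.98 log2 in 4-week GFP- cells, against 10.75, 10.61 and 10.38 log2 in CF (-3.03 ± 0.22). Fndc1, a protein with fibronectin type III domains, fell by 2.96 ± 0.18, and Serpinf1, the secreted pigment epithelium-derived factor, by 2.94 ± 0.14. Gucy1a1, a subunit of the nitric oxide receptor guanylate cyclase, changed by -2.87 ± 0.14. Hsd11b1, which makes active glucocorticoid from its inactive form, changed by -2.61 ± 0.19. Scel, sciellin, a protein of epithelial cell envelopes, changed by -2.79 ± 0.22. Tmem92 was at least 2.56-fold lower, its mean in 4-week GFP- cells being under the background limit.

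Most of the endothelial genes measured were called higher in 4-week GFP- cells. Of 21 measured, 12 were higher and 0 lower (1 at an unadjusted p under 0.05), with a median difference of 0.39 log2 beside -0.01 for all genes. The calls take in junction proteins, receptors and a transcription factor. Cdh5 (VE-cadherin), the adhesion protein of endothelial junctions, had 10.61, 10.52 and 10.11 log2 in 4-week GFP- cells, against 6.81, 6.79 and 6.70 log2 in CF (3.65 ± 0.12, adjusted p = 9.04e-14). Pecam1 (CD31), which is also found on platelets and leukocytes, had 9.70, 9.61 and 9.002 log2 in 4-week GFP- cells, against 6.70, 6.42 and 6.51 log2 in CF (2.89 ± 0.14, adjusted p = 2.14e-11). Erg, a transcription factor of the ETS family that maintains endothelial identity, had 8.53, 8.13 and 8.04 log2 in 4-week GFP- cells, against 7.12, 7.29 and 7.19 log2 in CF (1.04 ± 0.11, adjusted p = 2.28e-06). In all 3 genes the groups did not overlap. Tek (Tie2), the angiopoietin receptor, had 7.94, 7.96 and 7.15 log2 in 4-week GFP- cells, against 6.58, 6.58 and 6.81 log2 in CF (1.03 ± 0.16, adjusted p = 0.00014), and GFP- replicate 3 lay below the other two by a wide margin. Egfl7, a secreted protein of endothelial cells, had 8.93, 8.85 and 8.37 log2 in 4-week GFP- cells, against 7.79, 7.67 and 7.71 log2 in CF (0.99 ± 0.13). Kdr, the main receptor for vascular endothelial growth factor, had 7.43, 7.07 and 7.18 log2 in 4-week GFP- cells, against 6.61, 7.01 and 7.24 log2 in CF and was not called (0.28 ± 0.14, adjusted p = 0.299).

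The average level of the endothelial genes per array was 7.66 to 7.89 log2 in 4-week GFP- cells, 7.42 to 7.49 log2 in 2-week GFP- cells, 7.17 to 7.29 log2 in 4-week iCMs and 8.05 to 8.08 log2 in cardiomyocyte preparations, against 6.89 to 6.97 log2 in CF.

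**Figure D2:**
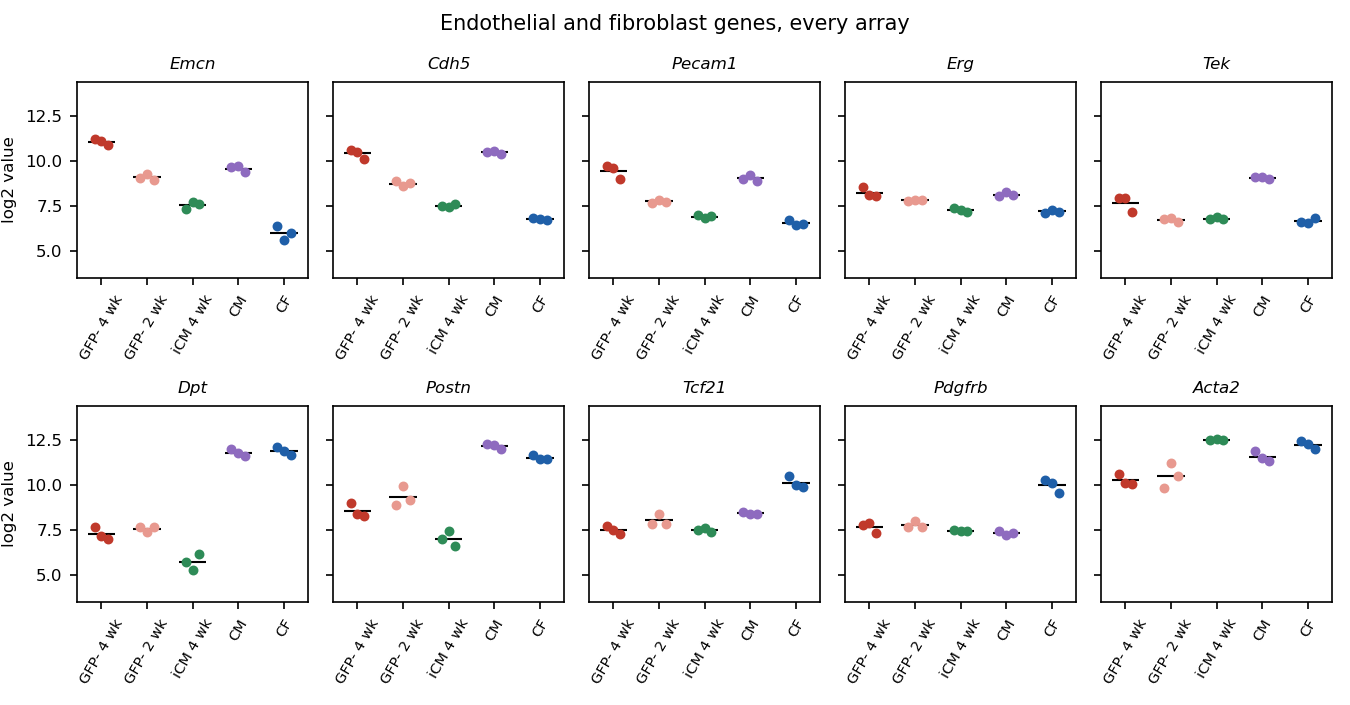
Log2 values of 5 endothelial genes (top row) and 5 fibroblast or myofibroblast genes (bottom row) in every array, with 1 point per array and a bar at the group mean, for 4-week and 2-week GFP- cells, 4-week iCMs, cardiomyocytes (CM) and cardiac fibroblasts (CF). The genes shown were picked among called genes, so the 4-week GFP- arrays lay above the CF arrays in the top row and below them in the bottom row. Of the 21 endothelial genes measured, 9 were not called, Kdr among them.

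Most of the fibroblast identity genes measured were called lower in 4-week GFP- cells. Of 18 measured, 0 were higher (0 at an unadjusted p under 0.05) and 11 lower, with a median of -0.77 log2. Tcf21, the transcription factor that specifies cardiac fibroblasts, had 7.73, 7.50 and 7.29 log2 in 4-week GFP- cells, against 10.50, 9.97 and 9.87 log2 in CF (-2.61 ± 0.16, adjusted p = 9.47e-10). Pdgfrb, a receptor for platelet-derived growth factor B, had 7.76, 7.87 and 7.34 log2 in 4-week GFP- cells, against 10.24, 10.13 and 9.55 log2 in CF (-2.32 ± 0.16, adjusted p = 2.89e-09). The related receptor Pdgfra, the usual sorting marker of cardiac fibroblasts, had 8.96, 8.88 and 8.86 log2 in 4-week GFP- cells, against 10.94, 10.67 and 10.47 log2 in CF (-1.79 ± 0.12, adjusted p = 3.71e-09). The groups did not overlap in any of these 3 genes. Ddr2, a collagen-binding receptor kinase, fell by 2.13 ± 0.16, Prrx1, a mesenchymal homeobox factor, by 1.36 ± 0.15, and the dipeptidase Dpep1 by 1.07 ± 0.10. Thy1 (CD90) differed by -0.79 ± 0.21, a call that was lost without CF replicate 1 and without GFP- replicate 3. S100a4, a calcium-binding protein of fibroblasts that leukocytes also express, fell by 0.75 ± 0.08. Vim, the intermediate filament vimentin, which mesenchymal cells and leukocytes share, had 12.57, 12.48 and 12.54 log2 in 4-week GFP- cells, against 12.64, 12.52 and 12.50 log2 in CF and was not called (-0.02 ± 0.07, adjusted p = 0.917).

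Most collagen chains were called lower as well. Of 22 chains, 0 were higher (0 at an unadjusted p under 0.05) and 15 lower, with a median of -0.69 log2. Col1a2, the second chain of type I collagen, had 8.28, 8.18 and 8.08 log2 in 4-week GFP- cells, against 10.55, 10.35 and 10.30 log2 in CF (-2.22 ± 0.12, adjusted p = 9.28e-11), a 4.67-fold fall. Col3a1, type III collagen, had 8.56, 8.46 and 8.43 log2 in 4-week GFP- cells, against 10.69, 10.60 and 10.51 log2 in CF (-2.12 ± 0.10, adjusted p = 1.25e-11). Col1a1 had 8.68, 8.56 and 8.52 log2 in 4-week GFP- cells, against 10.68, 10.47 and 10.24 log2 in CF (-1.88 ± 0.12, adjusted p = 1.2e-09). In these fibrillar chains each GFP- array was below each CF array. Col14a1, which decorates collagen fibrils, fell by 1.60 ± 0.17, Col8a1, a short-chain collagen, by 1.44 ± 0.24, and Col5a2, which sets fibril diameter, by 1.26 ± 0.12.

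The proteins that assemble and crosslink collagen were also lower in part. Of 17 measured, 0 were higher (1 at an unadjusted p under 0.05) and 10 lower, with a median of -0.63 log2. Lox, which crosslinks collagen and elastin, had 9.41, 9.14 and 8.59 log2 in 4-week GFP- cells, against 10.96, 10.74 and 10.51 log2 in CF (-1.69 ± 0.29, adjusted p = 0.000431). Its relative Loxl1 fell by 1.91 ± 0.12, and Plod2, the lysyl hydroxylase of collagen telopeptides, by 1.85 ± 0.19. Bmp1, the protease that removes the procollagen C-terminal propeptide, fell by 0.76 ± 0.11. The enhancers of that step, Pcolce and Pcolce2, fell by 0.99 ± 0.12 and 1.09 ± 0.16.

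Among 36 proteoglycans and matrix glycoproteins, 2 were higher and 20 lower, with a median of -0.55 log2, and 1 was higher without CF replicate 3 or GFP- replicate 3. Postn, periostin, a matricellular protein of activated fibroblasts, had 8.98, 8.40 and 8.27 log2 in 4-week GFP- cells, against 11.65, 11.43 and 11.45 log2 in CF (-2.96 ± 0.30, adjusted p = 7.14e-07), a 7.76-fold fall. Ogn, osteoglycin, a small leucine-rich proteoglycan, had 6.13, 6.26 and 6.20 log2 in 4-week GFP- cells, against 8.90, 9.03 and 9.14 log2 in CF (-2.83 ± 0.20). Its relative Aspn, asporin, was at least 6.15-fold lower, its mean in GFP- cells being under the background limit. The microfibril-associated proteins Mfap5 and Mfap4 fell by 2.72 ± 0.17 and 1.90 ± 0.16. Fn1, fibronectin, differed by -0.62 ± 0.15, a call that was lost without GFP- replicate 3. Members of the small leucine-rich family did not all move the same way. Dcn, decorin, had 12.59, 12.54 and 12.41 log2 in 4-week GFP- cells, against 12.61, 12.39 and 12.23 log2 in CF and was not called (0.10 ± 0.14, adjusted p = 0.761). Lum, lumican, had 10.16, 10.33 and 9.999 log2 in 4-week GFP- cells, against 9.11, 8.88 and 8.74 log2 in CF and was higher (1.25 ± 0.17, adjusted p = 2.57e-05).

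Matrix proteases were split. Of 27 proteases and inhibitors, 2 were higher and 10 lower, with a median of -0.10 log2, and the count of higher genes was 4 without GFP- replicate 3. The genes that fell included stromal enzymes and an inhibitor. Mmp3, stromelysin-1, had 8.44, 8.14 and 8.05 log2 in 4-week GFP- cells, against 10.85, 10.82 and 10.44 log2 in CF (-2.49 ± 0.18, adjusted p = 1.02e-08). Timp1, a metalloprotease inhibitor, fell by 1.50 ± 0.15, and the membrane-bound Mmp23 by 1.37 ± 0.10. The 2 genes that rose were Mmp12, the elastase of macrophages, and Mmp13, collagenase 3. Mmp12 had 12.91, 12.94 and 12.94 log2 in 4-week GFP- cells, against 10.62, 10.58 and 10.58 log2 in CF (2.34 ± 0.10, adjusted p = 7.29e-12), and Mmp13 had 9.02, 9.66 and 8.45 log2 in 4-week GFP- cells, against 7.15, 7.09 and 7.31 log2 in CF (1.86 ± 0.19, adjusted p = 9.44e-07).

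Most contractile genes of smooth muscle and myofibroblasts were called lower in 4-week GFP- cells. Of 19 measured, 0 were higher (0 at an unadjusted p under 0.05) and 15 lower, with a median of -0.64 log2. Acta2, the alpha smooth muscle actin that defines myofibroblasts, had 10.60, 10.13 and 10.07 log2 in 4-week GFP- cells, against 12.40, 12.25 and 11.97 log2 in CF (-1.94 ± 0.23, adjusted p = 6.61e-06), a 3.84-fold fall. Tagln, transgelin, an actin-binding protein of smooth muscle, had 9.38, 9.24 and 9.07 log2 in 4-week GFP- cells, against 11.10, 10.70 and 10.40 log2 in CF (-1.50 ± 0.24, adjusted p = 0.000175). Neither gene overlapped between groups. The myosin light chain Myl9 fell by 1.77 ± 0.21, the tropomyosin Tpm2 by 1.58 ± 0.13, and Cnn1, calponin, by 1.43 ± 0.25. Itga11, the collagen-binding integrin of fibroblasts, fell by 1.47 ± 0.10. Averaged over the list, the level per array was 8.001 to 8.17 log2 in 4-week GFP- cells and 8.06 to 8.46 log2 in 2-week GFP- cells, against 8.76 to 9.08 log2 in CF.

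Of 24 integrins and adhesion genes, 3 were higher and 6 lower. Cdh11, the cadherin of mesenchymal cells, fell by 0.81 ± 0.18, the protocadherin Pcdh18 by 1.42 ± 0.17 and the neural adhesion protein Ncam1 by 1.53 ± 0.17. Itga1, a subunit of a collagen receptor, fell by 0.85 ± 0.16, and Itgb5, a subunit of a vitronectin receptor, by 0.62 ± 0.13. Cdh13, a cadherin anchored by a lipid that endothelial cells carry, rose by 1.42 ± 0.12.

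Growth factors changed in both directions. Of 25 measured, 5 were higher and 9 lower, with 3 higher without GFP- replicate 1 and likewise without GFP- replicate 2. The ligands that fell included 2 of the lymphatic and vascular family. Vegfd had 9.48, 8.96 and 8.98 log2 in 4-week GFP- cells, against 11.72, 11.85 and 11.68 log2 in CF (-2.62 ± 0.19, adjusted p = 5.86e-09), and Vegfc fell by 1.52 ± 0.13. Fgf7, a growth factor that acts on epithelium, had 7.08, 6.97 and 6.92 log2 in 4-week GFP- cells, against 9.64, 9.33 and 8.86 log2 in CF (-2.29 ± 0.22, adjusted p = 2.97e-07). Fgf2, basic fibroblast growth factor, fell by 1.57 ± 0.20, and Kitl, the stem cell factor, by 1.09 ± 0.16. Nrg1, neuregulin 1, an endothelial ligand of the ErbB receptors of cardiomyocytes, had 9.16, 9.09 and 8.72 log2 in 4-week GFP- cells, against 7.44, 7.28 and 6.85 log2 in CF (1.80 ± 0.15, adjusted p = 3.69e-08), with all 3 GFP- arrays above all 3 CF arrays.

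Of 28 genes of transforming growth factor beta and bone morphogenetic protein signalling, 6 were higher and 6 lower, with 3 lower without CF replicate 1. Fst, follistatin, a secreted activin inhibitor, had 9.98, 9.81 and 9.45 log2 in 4-week GFP- cells, against 8.70, 8.40 and 8.01 log2 in CF (1.38 ± 0.27, adjusted p = 0.00128). The ligands Bmp2 and Bmp6 rose by 0.91 ± 0.21 and 0.67 ± 0.12. Fstl1, a secreted glycoprotein related to follistatin, had 10.11, 9.88 and 9.71 log2 in 4-week GFP- cells, against 11.26, 10.96 and 10.70 log2 in CF (-1.07 ± 0.18, adjusted p = 0.000292). Calls of the ligand genes Tgfb3 (-0.96 ± 0.28) and Inhba (-0.82 ± 0.21) were each lost when single arrays were left out, among them CF replicate 1 and GFP- replicate 3.

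Of 26 Wnt pathway genes, 3 were higher and 7 lower. Among secreted regulators, the inhibitor Frzb fell by 1.24 ± 0.12, while Dkk2, an inhibitor of the Dickkopf family, had 9.82, 9.79 and 9.51 log2 in 4-week GFP- cells, against 8.14, 8.48 and 8.35 log2 in CF (1.38 ± 0.14, adjusted p = 9.48e-07). Rspo3, an R-spondin that strengthens Wnt signals, had 8.17, 8.11 and 8.004 log2 in 4-week GFP- cells, against 7.05, 6.92 and 6.71 log2 in CF (1.20 ± 0.13, adjusted p = 2.19e-06). The matricellular proteins Ccn5 and Ccn4 fell by 1.65 ± 0.10 and 1.00 ± 0.14. Nkd2, an intracellular Wnt antagonist, fell by 0.94 ± 0.13.

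Of 20 genes of the insulin-like growth factor axis and imprinted growth genes, 6 were higher and 7 lower. The binding proteins Igfbp3 and Igfbp5 fell by 1.59 ± 0.18 and 1.28 ± 0.13. Among imprinted genes, the adaptor Grb10 and the long non-coding RNA Meg3 fell by 1.22 ± 0.14 and 1.28 ± 0.16, while Mest (3.74 ± 0.16) and Igf2r, the receptor that clears insulin-like growth factor 2 (1.18 ± 0.13), rose.

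About 1 in 3 core macrophage genes was higher in 4-week GFP- cells. Of 30 measured, 10 were higher and 1 lower, with a median of 0.23 log2. The count of higher genes was 5 without CF replicate 1 and 6 without each GFP- replicate in turn. Mertk, the receptor with which macrophages take up dying cells, had 10.39, 10.35 and 10.43 log2 in 4-week GFP- cells, against 8.92, 8.996 and 8.98 log2 in CF (1.42 ± 0.15, adjusted p = 9.81e-07). Fcgr2b, the inhibitory Fc receptor, had 11.27, 11.34 and 11.22 log2 in 4-week GFP- cells, against 9.79, 10.02 and 10.16 log2 in CF (1.29 ± 0.15, adjusted p = 5.65e-06). Fcgr3, an activating Fc receptor, rose by 0.82 ± 0.16, and Spi1, the myeloid transcription factor PU.1, by 0.66 ± 0.14. Cx3cr1, the fractalkine receptor, went the other way, with 10.34, 10.19 and 10.11 log2 in 4-week GFP- cells, against 11.15, 11.24 and 11.26 log2 in CF (-1.01 ± 0.13, adjusted p = 1.51e-05). Cd68, a lysosomal glycoprotein of macrophages, differed by 0.40 ± 0.10, and that call was lost without CF replicate 1.

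Most genes of lipid-laden and lysosome-rich macrophages were called higher in 4-week GFP- cells. Of 27 measured, 20 were higher and 1 lower, with a median of 0.59 log2. Atp6v0d2, a subunit of the proton pump of osteoclasts and macrophages, had 12.60, 12.54 and 12.19 log2 in 4-week GFP- cells, against 9.21, 9.42 and 9.64 log2 in CF (3.02 ± 0.18, adjusted p = 7.12e-10), a rise of 8.1-fold. Gpnmb, a glycoprotein of lipid-loaded macrophages, had 12.76, 12.71 and 12.74 log2 in 4-week GFP- cells, against 10.50, 10.94 and 11.11 log2 in CF (1.89 ± 0.12, adjusted p = 1.11e-09). The groups did not overlap in either gene. Itgax (CD11c), an integrin of dendritic cells and lipid-laden macrophages, rose by 2.06 ± 0.17, and Fabp4, a fatty acid-binding protein, by 1.83 ± 0.11. Lpl, which releases fatty acids from lipoproteins, rose by 1.63 ± 0.13. Gpr84, a receptor for medium-chain fatty acids, fell by 0.81 ± 0.16. Cd36, Fabp4 and Lpl are also genes of adipocytes and of capillary endothelium.

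Among 18 genes of tissue-resident macrophages, receptors and others, 6 were higher and 1 lower, with a median of 0.16 log2. Vsig4, a complement receptor of resident macrophages, had 7.85, 7.09 and 7.66 log2 in 4-week GFP- cells, against 5.10, 5.16 and 5.09 log2 in CF, which made it at least 2.6-fold higher (adjusted p = 7.36e-10). Cd209f, a lectin related to DC-SIGN, was at least 3.4-fold higher, also with a CF mean under the background limit. Pf4, the platelet chemokine that macrophages also make, had 11.13, 11.28 and 11.71 log2 in 4-week GFP- cells, against 9.76, 10.02 and 10.35 log2 in CF (1.33 ± 0.23, adjusted p = 0.000445). Folr2, a folate receptor, rose by 0.68 ± 0.14. F13a1, the coagulation factor XIII subunit of monocytes and macrophages, had 9.03, 8.54 and 9.004 log2 in 4-week GFP- cells, against 9.84, 10.39 and 10.68 log2 in CF (-1.44 ± 0.20, adjusted p = 2.93e-05). Ms4a7 was not called (0.61 ± 0.24, adjusted p = 0.134).

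Genes of inflammatory monocytes and neutrophils included more lower than higher calls. Of 15 measured, 2 were higher and 7 lower, with a median of -0.04 log2, and 1 was higher without GFP- replicate 3. Clec4e (Mincle), a receptor for mycobacterial glycolipid, had 8.98, 8.93 and 9.52 log2 in 4-week GFP- cells, against 10.63, 10.93 and 11.02 log2 in CF (-1.72 ± 0.17, adjusted p = 5.69e-07). Ccr2, the receptor that brings monocytes out of the marrow, was at least 2.37-fold lower (adjusted p = 4.17e-06), with 6.33, 6.09 and 5.72 log2 in 4-week GFP- cells, against 7.43, 7.39 and 7.39 log2 in CF. Ifitm6 fell by 1.55 ± 0.18, and Hp, haptoglobin, by 0.96 ± 0.15. The exception in size was Lcn2, lipocalin 2, which binds bacterial iron carriers. Lcn2 had 10.39, 10.22 and 9.41 log2 in 4-week GFP- cells, against 7.04, 6.71 and 6.83 log2 in CF (3.15 ± 0.18, adjusted p = 3.96e-10), with no overlap.

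**Figure D3:**
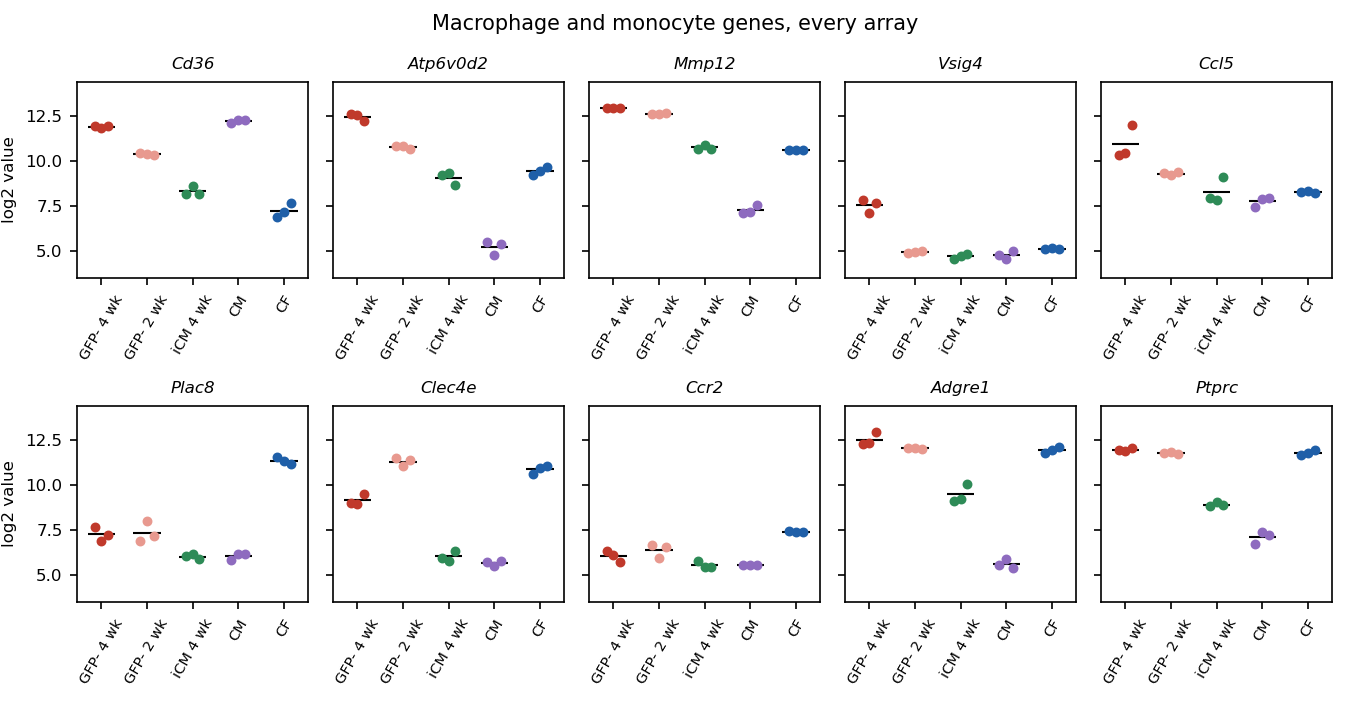
Log2 values of 10 macrophage and monocyte genes in every array, with 1 point per array and a bar at the group mean, for 4-week and 2-week GFP- cells, 4-week iCMs, cardiomyocytes (CM) and cardiac fibroblasts (CF). Cd36, Atp6v0d2, Mmp12, Vsig4 and Ccl5 lay higher in every 4-week GFP- array than in every CF array, and Plac8, Clec4e and Ccr2 lower, while Adgre1 and Ptprc were not called.

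Chemokines and their receptors moved in both directions. Of 35 measured, 10 were higher and 5 lower. The count of lower genes was 2 to 3 without each CF replicate in turn and without GFP- replicates 1 and 2. Ccl5, which draws T cells and monocytes, had 10.34, 10.44 and 11.96 log2 in 4-week GFP- cells, against 8.30, 8.34 and 8.19 log2 in CF (2.64 ± 0.32, adjusted p = 8.75e-06), and its GFP- replicate 3 stood above the other two. Ccr3, the eotaxin receptor, had 8.89, 9.05 and 8.71 log2 in 4-week GFP- cells, against 7.07, 6.97 and 7.11 log2 in CF (1.83 ± 0.13, adjusted p = 4.82e-09). Cxcl2, a neutrophil chemokine, rose by 1.17 ± 0.14, and Ccrl2, a receptor that binds chemerin, by 1.31 ± 0.14.

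Of 31 inflammatory cytokines and acute phase genes, 8 were higher and 4 lower, with 5 higher without CF replicate 2. Il1a, interleukin 1 alpha, was at least 2.31-fold higher (adjusted p = 8.49e-07), its CF mean being under the background limit. Il10, the anti-inflammatory interleukin, had 7.83, 7.49 and 7.51 log2 in 4-week GFP- cells, against 5.84, 6.29 and 6.66 log2 in CF (1.34 ± 0.19, adjusted p = 5.79e-05). Tnfaip3 (A20), which dampens NF-kappa-B signalling, rose by 1.26 ± 0.11. Csf1, the growth factor of macrophages that fibroblasts supply, had 10.01, 9.78 and 9.60 log2 in 4-week GFP- cells, against 11.41, 11.23 and 10.83 log2 in CF (-1.36 ± 0.14, adjusted p = 7.76e-07). Osmr, the receptor for oncostatin M, had 9.87, 9.90 and 9.39 log2 in 4-week GFP- cells, against 11.37, 11.02 and 10.78 log2 in CF (-1.33 ± 0.16, adjusted p = 5.65e-06).

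Of 13 complement genes, 2 were higher and 4 lower, and 2 were lower without GFP- replicate 3. Cd55, which protects cells from complement, had 10.17, 10.06 and 10.43 log2 in 4-week GFP- cells, against 8.45, 7.98 and 7.82 log2 in CF (2.14 ± 0.20, adjusted p = 2.6e-07). Serping1, the inhibitor of the first complement component, had 9.06, 8.97 and 8.76 log2 in 4-week GFP- cells, against 11.09, 11.04 and 10.87 log2 in CF (-2.06 ± 0.16, adjusted p = 2.79e-08). Of 13 genes of Toll-like receptors and related proteins, 2 were higher and 0 lower (0 at an unadjusted p under 0.05). Tlr8, a receptor for single-stranded RNA, rose by 1.00 ± 0.18 and Tlr6, a partner of Tlr2, by 0.64 ± 0.15. Of 16 genes of MHC class II presentation, 3 were higher and 0 lower (2 at an unadjusted p under 0.05), and 1 was lower without GFP- replicate 2. The costimulatory proteins Cd80 and Cd83 rose by 0.93 ± 0.15 and 0.91 ± 0.15, while H2-Eb1, a class II chain, was not called (-0.24 ± 0.11, adjusted p = 0.19). Of 14 markers of lymphocytes and mast cells, 1 was higher and 0 lower (1 at an unadjusted p under 0.05), and 6 of them had both group means under the background limit. The 1 call was the mast cell protease Mcpt4, at least 2.12-fold higher, and it was lost without CF replicate 3 and without GFP- replicate 3.

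Interferon-induced genes were higher in part. Of 32 measured, 12 were higher and 1 lower, with a median of 0.38 log2, and 7 were higher without GFP- replicate 3. The 1 lower call was lost without CF replicate 1, GFP- replicate 1 or GFP- replicate 2. Ifi203, a DNA sensor of the HIN-200 family, had 11.07, 10.96 and 11.28 log2 in 4-week GFP- cells, against 9.67, 9.69 and 10.14 log2 in CF (1.27 ± 0.14, adjusted p = 1.84e-06). Oas2, which makes the 2'-5' oligoadenylate that activates RNase L, had 8.85, 8.85 and 9.54 log2 in 4-week GFP- cells, against 7.94, 8.07 and 8.05 log2 in CF (1.06 ± 0.19, adjusted p = 0.000621). All 3 GFP- arrays lay above all 3 CF arrays in both genes. Its relative Oas1a rose by 0.76 ± 0.16 and the related Oasl2 by 1.02 ± 0.16. Irf7, the transcription factor that amplifies interferon production, rose by 0.84 ± 0.17. Mx2, a GTPase that restricts viruses, differed by 0.84 ± 0.20, a call lost without CF replicate 2 and without GFP- replicate 3.

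Promoters of this list were searched for the core letters of the interferon-stimulated response element (GAAA, any 2 bases, then GAAA), on both strands in the 250 bases before the gene start (RefSeq, GRCm38.p6). The letters were present in 13 of 27 list members with a promoter sequence and in 936 of 27025 genes overall (3.46%). Of the 10 members called higher that had a promoter sequence, 4 held them. The letters were thus no more common among the members called higher than in the list as a whole. A match describes these windows only, and shows neither binding nor a cause. The 150 bases before the start of those 4 genes, all on the minus strand of the assembly, are shown 5′ to 3′ because they carry the matched letters, in capitals, in genes that were higher.
Oas1a, chr5:120907526-120907675: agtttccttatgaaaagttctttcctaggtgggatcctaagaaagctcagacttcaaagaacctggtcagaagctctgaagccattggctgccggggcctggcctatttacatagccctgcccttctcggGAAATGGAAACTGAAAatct
Rsad2, chr12:26456453-26456602: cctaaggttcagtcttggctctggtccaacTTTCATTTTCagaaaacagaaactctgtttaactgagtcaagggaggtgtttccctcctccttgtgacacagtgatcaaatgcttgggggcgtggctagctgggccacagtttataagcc
Bst2, chr8:71537473-71537622: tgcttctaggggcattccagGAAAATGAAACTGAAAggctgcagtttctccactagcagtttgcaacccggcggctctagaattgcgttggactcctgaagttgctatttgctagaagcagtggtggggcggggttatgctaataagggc
Ifi203, chr1:173942493-173942642: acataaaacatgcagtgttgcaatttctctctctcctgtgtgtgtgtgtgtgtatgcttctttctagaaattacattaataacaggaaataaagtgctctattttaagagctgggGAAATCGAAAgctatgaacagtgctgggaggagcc
Oas1a and Bst2 each hold 2 overlapping matches, so that their capitals run longer, and the match of Rsad2 lies on the opposite strand. Rsad2 (viperin), an antiviral enzyme, had 7.66, 7.81 and 8.42 log2 in 4-week GFP- cells, against 7.14, 7.25 and 7.47 log2 in CF (0.68 ± 0.17, adjusted p = 0.00958), and Bst2 (tetherin), which holds virus particles at the membrane, had 9.85, 10.02 and 10.66 log2 in 4-week GFP- cells, against 9.66, 9.51 and 9.46 log2 in CF (0.64 ± 0.19, adjusted p = 0.0376). Both genes were chosen for their match and are not among those that the naming rule gave.

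Most mitotic genes were called lower in 4-week GFP- cells than in CF. Of 25 mitotic genes, 0 were higher (0 at an unadjusted p under 0.05) and 21 lower, with a median of -0.57 log2. The number of lower genes was 12 without CF replicate 3 and 9 without GFP- replicate 2. Bub1, a kinase of the spindle checkpoint, had 7.87, 7.54 and 8.16 log2 in 4-week GFP- cells, against 8.68, 8.91 and 9.21 log2 in CF (-1.07 ± 0.19, adjusted p = 0.000602). Kif11, the motor that separates spindle poles, had 8.05, 7.98 and 8.32 log2 in 4-week GFP- cells, against 8.81, 9.06 and 9.29 log2 in CF (-0.94 ± 0.19, adjusted p = 0.00226). Mki67, the proliferation antigen Ki-67, had 8.47, 8.52 and 8.75 log2 in 4-week GFP- cells, against 9.04, 9.46 and 9.60 log2 in CF (-0.79 ± 0.16, adjusted p = 0.00156), and Top2a, the topoisomerase of dividing cells, fell by 0.85 ± 0.17. Ccnb2 and Prc1, a mitotic cyclin and a midzone protein, fell by 0.72 ± 0.14 and 0.65 ± 0.15. The differences were modest, the largest being 2.1-fold.

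Of 29 DNA replication genes, 0 were higher (1 at an unadjusted p under 0.05) and 14 lower, with a median of -0.39 log2. Without single arrays (CF replicates 2 and 3, GFP- replicates 1 and 2) the count of lower genes was 8 or 9. E2f8, a repressor of the E2F family, fell by 0.91 ± 0.13. Rrm2 and Rrm1, the subunits of ribonucleotide reductase, fell by 0.88 ± 0.18 and 0.65 ± 0.12. Gins1, a subunit of the replicative helicase complex, fell by 0.79 ± 0.17, and Tyms, thymidylate synthase, by 0.59 ± 0.09. Among 23 cell cycle inhibitors and p53 targets, 4 were higher and 1 lower, with 2 higher without CF replicate 1, CF replicate 2 or GFP- replicate 1, and 0 lower without CF replicate 2 or GFP- replicate 3. Gadd45b and Gadd45a, growth arrest proteins, rose by 0.85 ± 0.16 and 0.59 ± 0.14. Cdkn2a, the locus of the senescence inhibitor p16, had 7.57, 7.32 and 7.36 log2 in 4-week GFP- cells, against 7.57, 7.33 and 7.56 log2 in CF and was not called (-0.07 ± 0.13, adjusted p = 0.848).

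The genes most used for cardiac reprogramming were examined next. Tbx5, a T-box factor of the heart, had 8.63, 8.38 and 8.72 log2 in 4-week GFP- cells, against 6.58, 6.70 and 6.75 log2 in CF (1.90 ± 0.11, adjusted p = 2.14e-10), a 3.74-fold rise with no overlap. Gata4, a zinc finger factor, had 9.14, 9.21 and 9.09 log2 in 4-week GFP- cells, against 9.04, 8.95 and 8.42 log2 in CF (0.34 ± 0.13, adjusted p = 0.102). Mef2c, a factor of muscle that macrophages and endothelium also express, had 11.18, 11.17 and 11.15 log2 in 4-week GFP- cells, against 10.46, 10.71 and 10.79 log2 in CF (0.52 ± 0.13, adjusted p = 0.00976), and this call was lost without CF replicate 1. The arrays cannot separate transcripts of the introduced genes from those of the cells' own genes, and the labels do not say which genes were introduced.

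Sarcomere genes were partly higher. Of 31 measured, 11 were higher and 4 lower, with a median of 0.10 log2. Actc1, the cardiac alpha-actin, had 9.64, 9.47 and 9.03 log2 in 4-week GFP- cells, against 6.81, 7.34 and 7.26 log2 in CF (2.24 ± 0.27, adjusted p = 5.26e-06), a 4.73-fold rise. Myl4, the atrial essential light chain, had 10.40, 10.13 and 10.25 log2 in 4-week GFP- cells, against 8.63, 8.002 and 7.49 log2 in CF (2.22 ± 0.25, adjusted p = 3.11e-06), and Myl7, the atrial regulatory light chain, had 8.83, 8.73 and 8.89 log2 in 4-week GFP- cells, against 7.05, 6.95 and 6.80 log2 in CF (1.88 ± 0.16, adjusted p = 8.97e-08). In these 3 genes every GFP- array exceeded every CF array. Tnnt2, cardiac troponin T, had 12.28, 12.15 and 12.46 log2 in 4-week GFP- cells, against 11.33, 11.01 and 10.32 log2 in CF (1.41 ± 0.16, adjusted p = 3.79e-06). Csrp3, the muscle LIM protein, rose by 1.46 ± 0.14, and Smpx, a small muscle protein, was at least 1.66-fold higher. Myh6, the alpha-myosin heavy chain, had 7.22, 7.11 and 7.25 log2 in 4-week GFP- cells, against 6.95, 6.59 and 6.58 log2 in CF and was not called (0.49 ± 0.21, adjusted p = 0.17). Ttn, titin, differed by 0.53 ± 0.16, a call lost in 5 of the 6 analyses that each left out 1 of these arrays (all but that without CF replicate 2).

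Averaged over the sarcomere list, the level per array was 7.92 to 8.01 log2 in 4-week GFP- cells, 10.39 to 10.49 log2 in 4-week iCMs and 11.85 to 11.92 log2 in cardiomyocytes, against 7.48 to 7.66 log2 in CF. Of 25 skeletal muscle genes, 0 were higher (0 at an unadjusted p under 0.05) and 0 lower (0 at an unadjusted p under 0.05) in limma, with a median of -0.09 log2.

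**Figure D4:**
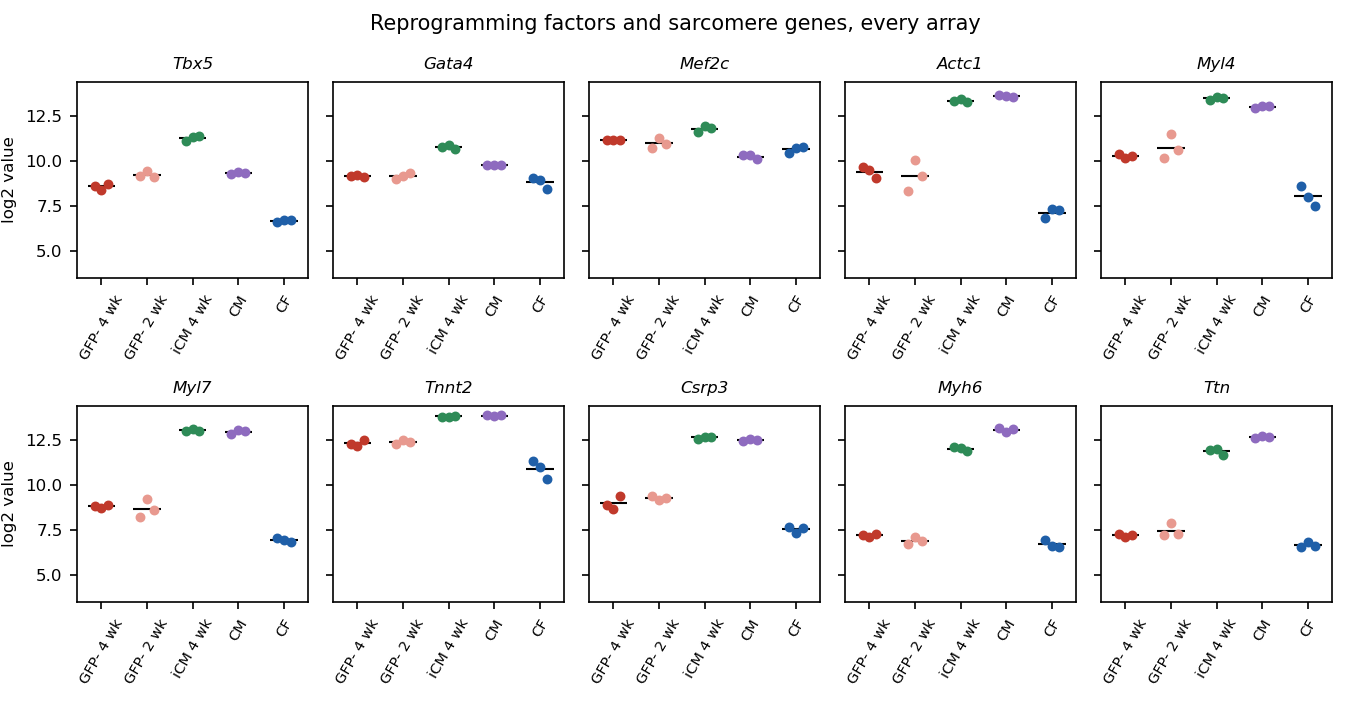
Log2 values of 3 transcription factors used for reprogramming in the field and 7 sarcomere genes in every array, with 1 point per array and a bar at the group mean, for 4-week and 2-week GFP- cells, 4-week iCMs, cardiomyocytes (CM) and cardiac fibroblasts (CF). Tbx5, Actc1, Myl4, Myl7, Tnnt2 and Csrp3 lay higher in every 4-week GFP- array than in every CF array, and below the 4-week iCM arrays.

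Of 22 calcium handling and channel genes, 2 were higher and 1 lower, near the 5.79% and 5.7% of all genes called higher and lower. Ryr2, the calcium release channel, had 7.67, 7.71 and 8.01 log2 in 4-week GFP- cells, against 6.73, 6.89 and 6.96 log2 in CF (0.94 ± 0.10, adjusted p = 2.06e-06). The calcium sensor S100a1 rose by 0.42 ± 0.09. Jph2, junctophilin, which ties the sarcoplasmic reticulum to the surface membrane, had 9.02, 8.78 and 8.75 log2 in 4-week GFP- cells, against 10.46, 10.32 and 10.03 log2 in CF (-1.42 ± 0.14, adjusted p = 4.95e-07). Casq2, the calcium store protein, was not called (0.45 ± 0.28, adjusted p = 0.398). Of 18 genes of muscle energy metabolism, 7 were higher and 0 lower (0 at an unadjusted p under 0.05), with a median of 0.24 log2. Fabp3, the fatty acid-binding protein of muscle, had 9.06, 8.77 and 8.75 log2 in 4-week GFP- cells, against 7.33, 7.44 and 7.66 log2 in CF (1.39 ± 0.13, adjusted p = 1.86e-07). Ppargc1a, a coactivator of mitochondrial genes, rose by 0.92 ± 0.21 and the lactate dehydrogenase subunit Ldhb by 0.68 ± 0.10. The largest rise in this list was that of Lpl (1.63), which is also counted among the lipid-laden macrophage genes. Nppa, atrial natriuretic peptide, had 7.49, 7.25 and 8.03 log2 in 4-week GFP- cells, against 6.93, 6.77 and 6.39 log2 in CF (0.89 ± 0.21, adjusted p = 0.00628). Its relative Nppb was not called (0.41 ± 0.16, adjusted p = 0.123). Both belong to a list of 5 natriuretic peptide and fetal cardiac genes, with differences from -0.46 to 4.81 log2. Of these 5, 3 were higher and 0 lower (1 at an unadjusted p under 0.05), and 1 was lower without CF replicate 3 or GFP- replicate 1.

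Of 18 other cardiac transcription factors, 2 were higher and 2 lower, not far from the 5.79% and 5.7% of all genes. Prox1, a homeobox factor of cardiomyocytes and lymphatic endothelium, rose by 0.61 ± 0.10, and Mef2d by 0.42 ± 0.08. Tead1, a partner of the YAP coactivator, fell by 0.83 ± 0.14, and Zfpm2, a cofactor of Gata4, by 0.77 ± 0.15. Nkx2-5, the homeobox factor of early heart, had 8.01, 7.98 and 8.001 log2 in 4-week GFP- cells, against 8.01, 8.11 and 8.06 log2 in CF and was not called (-0.06 ± 0.11, adjusted p = 0.826).

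Part of the hypoxia, glycolysis and cholesterol genes were lower in 4-week GFP- cells. Of 22 hypoxia and glycolysis genes, 0 were higher (1 at an unadjusted p under 0.05) and 11 lower, with a median of -0.33 log2, and 1 was higher without GFP- replicate 3. Adm, adrenomedullin, a vasodilator peptide, had 8.70, 8.10 and 8.14 log2 in 4-week GFP- cells, against 10.81, 10.81 and 10.47 log2 in CF (-2.38 ± 0.18, adjusted p = 1.24e-08), and Vegfa, the main vascular growth factor, had 8.42, 8.16 and 8.30 log2 in 4-week GFP- cells, against 9.81, 9.52 and 9.40 log2 in CF (-1.28 ± 0.10, adjusted p = 4.2e-08). Neither gene overlapped between groups. Egln3, an oxygen-sensing hydroxylase, fell by 0.81 ± 0.16. Of 17 cholesterol genes, 0 were higher (0 at an unadjusted p under 0.05) and 8 lower, with a median of -0.28 log2. Sqle, squalene epoxidase, fell by 0.69 ± 0.09, and the sterol enzymes Cyp51 and Sc5d by 0.56 ± 0.12 and 0.57 ± 0.13.

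Detoxification genes were split: of 26, 10 were higher and 6 lower. Aldh3a1, an aldehyde dehydrogenase, had 8.71, 8.76 and 8.46 log2 in 4-week GFP- cells, against 6.55, 6.56 and 6.47 log2 in CF (2.12 ± 0.12, adjusted p = 1.61e-10). The glutathione transferase Gstm1 rose by 1.04 ± 0.09, while Gstm2 fell by 1.10 ± 0.20 and Gsta3 by 1.07 ± 0.21. Transferases of 1 family are close in sequence, so their probe sets may share signal. Sod3, the extracellular superoxide dismutase, fell by 1.08 ± 0.12. Of 20 endoplasmic reticulum stress genes, 0 were higher (0 at an unadjusted p under 0.05) and 3 lower, led by Asns, asparagine synthetase (-0.93 ± 0.21). Of 25 respiratory chain genes, 1 was higher and 0 lower (0 at an unadjusted p under 0.05). The 1 call, Ndufa4 (0.25 ± 0.07), was lost without CF replicates 2 or 3 and GFP- replicates 2 or 3. Of 24 immediate early genes, 9 were higher and 0 lower (0 at an unadjusted p under 0.05), and 4 were higher without CF replicate 1 or GFP- replicate 2. The zinc finger factor Egr2 had 11.34, 11.41 and 11.26 log2 in 4-week GFP- cells, against 9.95, 10.10 and 10.38 log2 in CF (1.20 ± 0.13, adjusted p = 2.29e-06), and Atf3, a stress-induced factor, rose by 1.02 ± 0.17.

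Markers of other tissues were examined as a check. Of 16 mesothelial and epicardial genes, 1 was higher and 8 lower, and the 1 higher call was lost without CF replicate 2, GFP- replicate 1 or GFP- replicate 3. Lrrn4, a surface protein of mesothelium, fell by 1.24 ± 0.20, and Wt1, the Wilms tumour factor of epicardium, by 0.62 ± 0.12. Bnc1, a zinc finger protein of epithelia, fell by 0.89 ± 0.14. Of 16 adipocyte genes, 5 were higher and 2 lower, and 1 was lower without any 1 CF replicate or GFP- replicates 2 or 3. The 5 higher genes were Cd36, Fabp4, Lpl, Pparg and Cebpa. Cd36, Fabp4 and Lpl are also counted among the lipid-laden macrophage genes, and Adipoq, Lep, Plin1 and Cidec were not called higher. Pparg, the master regulator of fat cells, which macrophages also use, had 10.01, 9.80 and 9.12 log2 in 4-week GFP- cells, against 8.08, 8.41 and 8.39 log2 in CF (1.35 ± 0.19, adjusted p = 5.68e-05), and Cebpa, a partner factor, rose by 1.03 ± 0.17. Of 12 neural genes, 3 were higher and 2 lower, with 1 higher without CF replicate 3 or GFP- replicate 1, and 1 lower without CF replicates 1 or 2 or GFP- replicates 2 or 3. Nrn1, neuritin, had 8.22, 7.90 and 8.09 log2 in 4-week GFP- cells, against 7.02, 6.85 and 7.05 log2 in CF (1.10 ± 0.12, adjusted p = 1.84e-06). Of 13 bone and cartilage genes, 0 were higher (0 at an unadjusted p under 0.05) and 1 lower, and the call of Mgp (-0.45 ± 0.14) was lost without CF replicates 1 or 2 or any 1 GFP- replicate. Of 7 Schwann cell genes, 0 were higher (0 at an unadjusted p under 0.05) and 0 lower (1 at an unadjusted p under 0.05). Of 2 erythroid genes, 0 were higher (0 at an unadjusted p under 0.05) and 0 lower (0 at an unadjusted p under 0.05). Of 12 genes of pluripotency and early mesoderm, 0 were higher (0 at an unadjusted p under 0.05) and 0 lower (1 at an unadjusted p under 0.05).

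**Figure D5:**
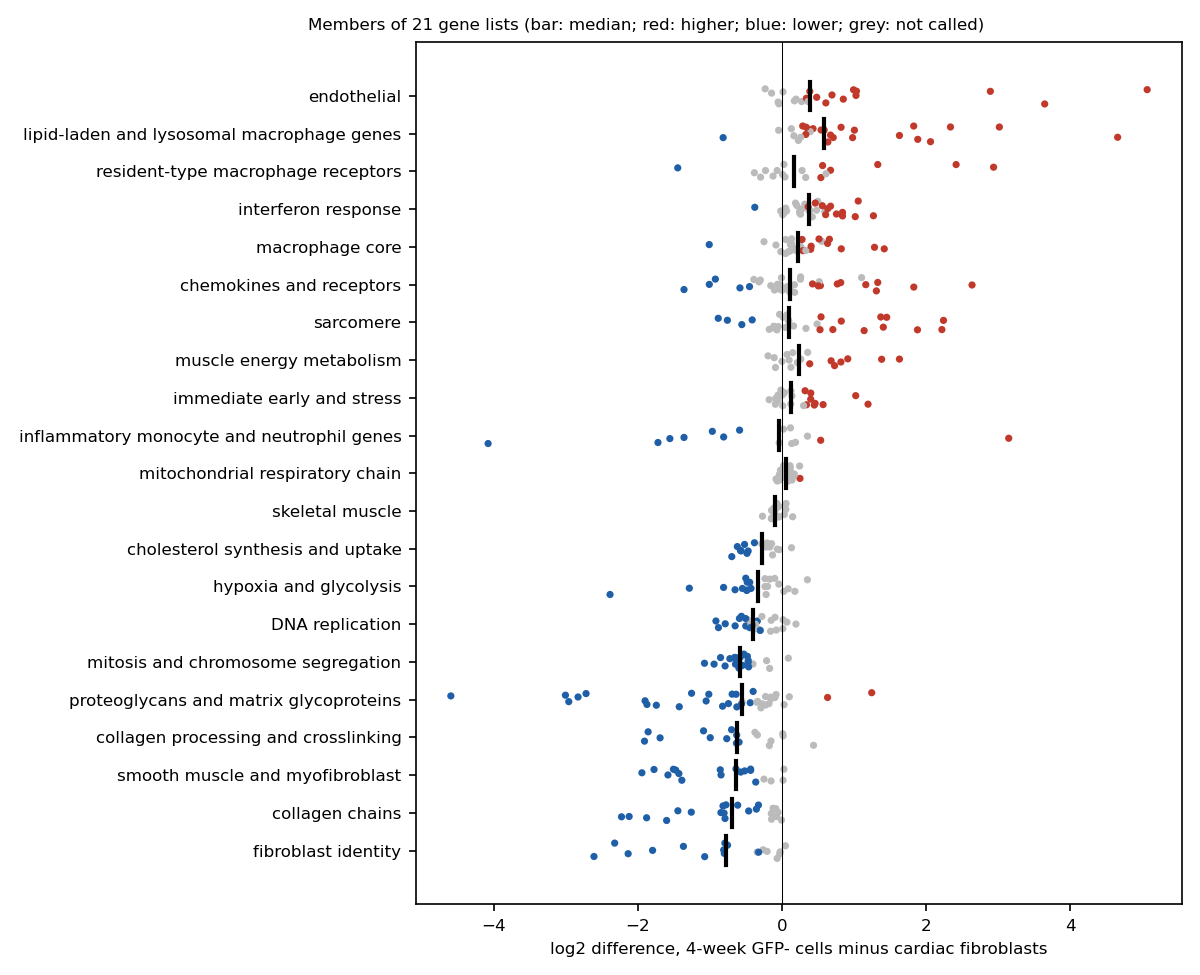
Log2 difference of 4-week GFP- cells minus cardiac fibroblasts (horizontal axis) for the measured members of 21 gene lists, with 1 point per gene and a bar at each list's median. Red points were called higher, blue points lower and grey points were not called. Among the 21 lists shown, picked from 46, medians ran from -0.77 log2 for fibroblast identity to 0.59 log2 for lipid-laden and lysosomal macrophage genes. A list not shown, natriuretic peptides and fetal cardiac genes, had a median of 0.64 log2.

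The 4-week GFP- cells were then set against the 2-week GFP- cells, to see which of these genes differ with time. Apart from the time, the labels describe both groups in the same way. In all, 3465 genes were called (17.4% of those tested), 1426 higher (7.16%) and 2039 lower (10.2%) at 4 weeks, and 308 of them differed at least 2-fold. This split depended on the scale, with 2068 higher and 1787 lower calls after cyclic loess normalization and 1795 higher and 1230 lower after centring each array on its median. Both comparisons share the 4-week GFP- arrays.

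Cell division genes were lower at 4 weeks. All of the 25 mitotic genes were lower at 4 weeks than at 2 weeks, with a median of -1.30 log2, and of 29 replication genes 0 were higher (0 at an unadjusted p under 0.05) and 25 lower, with a median of -0.80. Bub1 had 7.87, 7.54 and 8.16 log2 in 4-week GFP- cells, against 9.90, 9.84 and 9.68 log2 in 2-week GFP- cells (-1.95 ± 0.19, adjusted p = 1.13e-06). Mki67 had 8.47, 8.52 and 8.75 log2 in 4-week GFP- cells, against 10.44, 10.16 and 10.15 log2 in 2-week GFP- cells (-1.67 ± 0.16, adjusted p = 6.58e-07). Neither gene overlapped between the 2 times, which for Bub1 the rule for named genes required. Of 17 cholesterol genes, 0 were higher (0 at an unadjusted p under 0.05) and 8 lower in time.

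Of 21 endothelial genes, 8 were higher and 1 lower at the later time, with 5 higher without 4-week GFP- replicate 1, and 2 lower without that array or 2-week replicate 2. Emcn had 11.19, 11.08 and 10.90 log2 in 4-week GFP- cells, against 9.06, 9.25 and 8.96 log2 in 2-week GFP- cells (1.97 ± 0.16, adjusted p = 1.13e-07), Cdh5 differed by 1.68 ± 0.12, and Pecam1 by 1.69 ± 0.14. In Emcn, Cdh5 and Pecam1 all 3 arrays at 4 weeks lay above all 3 at 2 weeks. Myct1, which is not in the endothelial list, differed by 2.10 ± 0.14.

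Macrophage genes were called in both directions between the times, where 7.16% of all genes were called higher and 10.2% lower. Of 30 core genes, 2 were higher and 5 lower, not far from these shares, with a median of 0.01 log2. The higher core calls numbered 0 without 2-week replicates 1 or 3 and 1 without 4-week replicate 2. Of 27 lipid-laden and lysosomal genes, 9 were higher and 2 lower, and 1 was lower without any 1 array of either time. Of 18 genes of tissue-resident macrophages, 5 were higher and 2 lower, with Vsig4 at least 2.6-fold and Cd209f at least 3.4-fold higher. Ms4a4a had 10.72, 10.55 and 10.92 log2 in 4-week GFP- cells, against 7.86, 7.86 and 7.95 log2 in 2-week GFP- cells (2.84 ± 0.15, adjusted p = 3.59e-10). Of 15 monocyte and neutrophil genes, 1 was higher and 6 lower. Clec4e had 8.98, 8.93 and 9.52 log2 in 4-week GFP- cells, against 11.46, 11.04 and 11.36 log2 in 2-week GFP- cells (-2.14 ± 0.17, adjusted p = 1.13e-07), and Ifitm6 fell by 2.15 ± 0.18. Gpr84, counted among the lipid-laden and lysosomal genes, fell by 2.08 ± 0.16. Lcn2 had 10.39, 10.22 and 9.41 log2 in 4-week GFP- cells, against 7.15, 7.02 and 7.17 log2 in 2-week GFP- cells (2.90 ± 0.18, adjusted p = 5.62e-09). Cd55 rose by 2.58 ± 0.20.

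Of 22 collagen chains 0 were higher (0 at an unadjusted p under 0.05) and 2 lower at 4 weeks than at 2 weeks, beside 10.2% of all genes called lower, and 2 were higher without 2-week replicate 2. Of 36 proteoglycans and glycoproteins 7 were higher and 0 lower (3 at an unadjusted p under 0.05), and 1 was lower without 2-week replicate 1. Lum had 10.16, 10.33 and 9.999 log2 in 4-week GFP- cells, against 6.67, 7.11 and 6.77 log2 in 2-week GFP- cells (3.31 ± 0.17, adjusted p = 3.59e-10), and Dcn differed by 1.44 ± 0.14. Dpt, the gene with the largest fall against CF, was not called in time (-0.31 ± 0.19, adjusted p = 0.287). Hal, histidine ammonia-lyase, showed the largest fall, with 8.48, 8.44 and 8.65 log2 in 4-week GFP- cells, against 10.81, 10.67 and 10.72 log2 in 2-week GFP- cells (-2.21 ± 0.09, adjusted p = 1.44e-11). The acyltransferase Mboat1 fell by 1.84 ± 0.14. Of 31 sarcomere genes, 1 was higher and 1 lower, and when single arrays were left out at most 3 were called in either direction.

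The comparison with 4-week iCMs set the GFP- cells against the cells of the same age that had switched on the reporter. In all, 6816 genes were called (34.2%), 3395 higher (17.1%) and 3421 lower (17.2%) in GFP- cells, and 1703 differed at least 2-fold. GFP- arrays correlated with iCM arrays at r = 0.9324 to 0.9396 across genes. All 30 core macrophage genes were higher in GFP- cells, with a median of 2.81 log2. Of 13 genes of Toll-like receptors and related proteins, 12 were higher and 0 lower (0 at an unadjusted p under 0.05). Tlr13, a receptor for bacterial ribosomal RNA, had 11.78, 11.77 and 11.78 log2 in 4-week GFP- cells, against 8.17, 8.22 and 7.50 log2 in 4-week iCMs (3.81 ± 0.19, adjusted p = 4.11e-12). Il7r, the interleukin 7 receptor, differed by 3.70 ± 0.21, Tlr7 by 3.69 ± 0.17 and Tlr8 by 3.70 ± 0.18. Stap1, a signalling adaptor, differed by 3.69 ± 0.13, and Cd200r1, an inhibitory receptor of myeloid cells, by 3.69 ± 0.14.

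The sarcomere genes were lower in GFP- cells than in iCMs in 28 of 31 cases, with a median of -2.45 log2. Myh6 had 7.22, 7.11 and 7.25 log2 in 4-week GFP- cells, against 12.09, 12.02 and 11.89 log2 in 4-week iCMs (-4.80 ± 0.21, adjusted p = 4.42e-13), and Ttn had 7.25, 7.12 and 7.25 log2 in 4-week GFP- cells, against 11.91, 12.01 and 11.64 log2 in 4-week iCMs (-4.65 ± 0.16, adjusted p = 1.83e-14). Casq2 and Jph1, proteins of the calcium release unit, and Smpx differed by -4.57 ± 0.28, -4.41 ± 0.29 and -4.45 ± 0.21. Enpep, the aminopeptidase that cleaves angiotensin II, differed by -5.08 ± 0.21. The factors Tbx5, Gata4 and Mef2c were all lower in GFP- cells, by -2.69 ± 0.11, -1.63 ± 0.13 and -0.61 ± 0.13.

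Of 18 fibroblast identity genes 3 were higher and 3 lower in GFP- cells than in iCMs, and of 22 collagen chains 2 were higher and 4 lower. These counts are near the 34.2% of all genes called in this comparison. Tcf21 had 7.73, 7.50 and 7.29 log2 in 4-week GFP- cells, against 7.51, 7.61 and 7.40 log2 in 4-week iCMs and was not called (-0.00 ± 0.16, adjusted p = 0.997). Pdgfrb likewise was not called (0.20 ± 0.16, adjusted p = 0.359). Of 19 smooth muscle genes, 0 were higher (0 at an unadjusted p under 0.05) and 15 lower, with Acta2 lower in GFP- cells (-2.25 ± 0.23, adjusted p = 1.53e-07). Of 21 endothelial genes, 10 were higher and 2 lower, and of 25 mitotic genes, 22 were higher and 1 lower.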

How the data were processed

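RNA was extracted with PicoPure and labelled by MessageAmp II-biotin, per the labels' protocols. What the authors deposited are log2 values made with RMA, per the submitters' processing notes (version not given in the sources used here). Of 28682 probe sets, 21755 named 1 gene, 1592 several and 5335 none, and only the first kind was used. For 997 genes with several probe sets the one with the highest mean was kept. This left 19912 genes, 19829 of them matched to RefSeq.

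A model with group as its only term was fitted gene by gene over the 18 arrays in limma 3.58.1 and R 4.3.3 (lmFit and eBayes, 12 residual and 6.96 prior degrees of freedom). Tests were two-sided, with Benjamini-Hochberg adjustment over all genes in each comparison. The number of arrays limits the precision.

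The comparison, the 46 gene lists (922 genes measured) and the rule for named genes were chosen with earlier results of these data known. Named genes are the 15 largest rises and 15 largest falls among called genes whose arrays did not overlap, the 6 largest differences in each list (all members where 10 or fewer were measured), 29 measured anchor genes, and by the first rule the 6 largest rises and falls of each of the other 2 comparisons. Predicted, unnamed and olfactory receptor genes were left out of the ranked choices. Alternatives were quantile and cyclic loess normalization, centring on the median, array weights, an intensity trend, only the groups compared, a low-signal filter, other probe set choices, a minimum fold of 2 and a replicate block. Each array of the 2 groups compared was also left out in turn.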

Additional observations from a re-analysis of the deposited data

Results flagged for a closer look

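For 47 of the 296 named genes the difference from CF was not the same at the 2 times, by the test of 4-week minus 2-week GFP- cells in limma (adjusted p under 0.05 and at least 2-fold). Of these, 31 were higher and 16 lower at 4 weeks, and the values given are log2 differences of 4-week minus 2-week GFP- cells. Among all genes, 308 of 19912 passed the same cut. The named genes include the largest rises and falls of this same comparison, which were picked for their size and so had to pass. The count of 47 therefore rests in part on the choice of genes and cannot be read as an excess over all genes. Groups of 3 arrays are too small for a test of single outlying arrays, and none was made. The cause of these differences was not tested.

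Of the endothelial genes, Emcn (1.97), Cdh5 (1.68) and Pecam1 (1.69) were higher at 4 weeks, as was Myct1 (2.10), which is not in the endothelial list. Each of these genes was also higher in 4-week GFP- cells than in CF. Of macrophage genes, Cd36 (1.50), Atp6v0d2 (1.68), Itgax (1.22), Lpl (1.32), Ms4a4a (2.84), Slc40a1 (1.84) and Pf4 (1.70) were higher, as were Stap1 (1.03), Cd200r1 (1.03) and Mmp13 (1.16). The lectin Cd209f (3.06) and Vsig4 (2.60) had means in 2-week cells under the background limit, so their fitted sizes are no exact values. The secreted or inflammatory genes Lcn2 (2.90) and Ccl5 (1.62), the receptor Ccr3 (2.13) and the complement regulator Cd55 (2.58) were higher too.

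Matrix and growth factor genes that were higher at 4 weeks were Lum (3.31), Dcn (1.44), Pcolce2 (1.32), Rspo3 (1.33), Dkk2 (1.68) and Nrg1 (1.24). Dcn was not called against CF (0.10 ± 0.14). Pcolce2 and Osmr (1.15) were higher at 4 weeks than at 2 weeks, yet lower in 4-week GFP- cells than in CF (-1.09 ± 0.16 and -1.33 ± 0.16). The remaining rises were Mest (1.16), Bex1 (1.26), Nrn1 (1.88) and Aldh3a1 (2.06).

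Cell division and replication genes that were lower at 4 weeks were Bub1 (-1.95), Rrm2 (-1.75), Mki67 (-1.67), E2f8 (-1.55), Prc1 (-1.49), Top2a (-1.45), Kif11 (-1.42) and Ccnb2 (-1.32). Gins1, of the replicative helicase complex, was lower as well (-1.20). Monocyte and macrophage genes that fell were Ifitm6 (-2.15), Clec4e (-2.14), Gpr84 (-2.08) and Hp (-1.12). Hal, histidine ammonia-lyase (-2.21), and Nppa, atrial natriuretic peptide (-1.42), were lower at 4 weeks than at 2 weeks and higher in 4-week GFP- cells than in CF (0.60 ± 0.09 and 0.89 ± 0.21). Mboat1, an acyltransferase, was lower at 4 weeks (-1.84).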

How the results depend on the processing

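The 2286 genes called against CF became 3720 with array weights and 402 with a minimum fold of 2. For 4-week against 2-week GFP- cells, the 3465 calls became 6087 with array weights and 308 with a minimum fold of 2. Against 4-week iCMs, the 6816 calls became 1703 with a minimum fold of 2. Leaving out 1 array at a time gave 1612 to 2045 calls against CF, 2350 to 3677 in time and 5950 to 6371 against iCMs. The counts under the other alternatives stayed within 1.5 times of these, and no scaling moved the median of all genes by more than 0.068 log2. Of 231 named genes called against CF, 200 were called in every setting in which they were tested. The other 31 lost the call in at least 1, and none changed direction. The low-signal filter left some listed genes untested, with 12 in place of 18 genes of tissue-resident macrophages remaining. Of the 92 counts of higher or lower genes in the 46 lists, 26 moved by over 1.5 times when some single array was left out, and 9 of these were counts of 5 or more. Among them, the lower mitotic genes numbered 9 in place of 21 without GFP- replicate 2, and the higher core macrophage genes 5 in place of 10 without CF replicate 1. The cause was not tested.

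The labels give the groups the same replicate numbers. Deviations of same-numbered arrays of 4-week GFP- cells and CF correlated at 0.119, 0.064 and 0.206, so the arrays were not treated as pairs, although every array of these 2 groups correlated best with its own number. Between 4-week and 2-week GFP- cells the same-numbered arrays correlated at -0.157, -0.05 and 0.115. Between 4-week GFP- cells and 4-week iCMs they correlated at -0.116, -0.104 and 0.119. With the replicate number as a block, 2353 genes were called against CF, 3615 in time and 6963 against iCMs.

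Signal over background limits 3738 genes, in which both groups lay under the background limit.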

Other observations

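Other gene groups were set against the 4-week iCMs, where 17.1% of all genes were called higher and 17.2% lower. Of 25 respiratory chain genes, 0 were higher (0 at an unadjusted p under 0.05) and 20 lower in 4-week GFP- cells than in iCMs, with a median of -0.33 log2. Of 18 genes of muscle energy metabolism, 1 was higher and 15 lower, with a median of -1.36 log2. Of 22 calcium handling and channel genes, 1 was higher and 17 lower. On the side of immune genes, of 27 lipid-laden and lysosomal genes 25 were higher and 0 lower (0 at an unadjusted p under 0.05), of 35 chemokines and receptors 23 were higher and 0 lower (1 at an unadjusted p under 0.05), and of 32 interferon-induced genes 24 were higher and 2 lower. The immune groups stood higher together with the core macrophage genes, and the part of macrophage number in them was not tested.

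Over time within GFP- cells, 7.16% of all genes were called higher and 10.2% lower at 4 weeks. Of 20 endoplasmic reticulum stress genes, 1 was higher and 11 lower, with 7 lower without 2-week replicate 2 and 6 without 4-week replicate 3. The 1 higher call was lost without 2-week replicates 1 or 3. Of 28 genes of transforming growth factor beta and bone morphogenetic protein signalling, 10 were higher and 2 lower, with 5 higher without 4-week replicate 2 and 6 without 4-week replicate 1 or 2-week replicates 1 or 3, and 1 lower without 2-week replicates 1 or 2 or 4-week replicates 2 or 3. Of 25 growth factor genes, 8 were higher and 2 lower, with 1 lower without 2-week replicates 1 or 3 and 0 without 4-week replicates 2 or 3.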
